A study of Mus musculus with 6 samples.

Results

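The corneal crystallin and aldehyde defense enzymes comprised 10 genes, picked by symbol from the 17784 genes of the expression table. They were 6 aldehyde dehydrogenase genes (*Aldh3a1*, *Aldh2*, *Aldh3a2*, *Aldh3b1*, *Aldh7a1* and *Aldh9a1*), the transketolase gene *Tkt*, the alcohol dehydrogenase gene *Adh7*, the aldose reductase gene *Akr1b3* and the αB-crystallin gene *Cryab*. The genes were selected on function, with the counts and TPM of this same comparison already known, so their values are given as a description, and their adjusted p-values only place them within the test of all genes. All 10 were in the table and passed the filter on low counts.

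Bulk RNA-seq measured corneal epithelial cells freed with EDTA from mice in which the Hedgehog receptor gene *Ptch1* was deleted in mesenchymal cells (*Prrx1-CreERT;Ptch1* f/f, here *Ptch1*-ablated, 3 samples) and from control mice (3 samples). The labels describe mice of 10 weeks, and both groups received 3 doses of tamoxifen. The labels also give 2 months, without saying whether this was the span of treatment or the time after it. The control genotype is given only as control. The *Prrx1* driver acts in keratocytes and other ocular mesenchyme rather than in the epithelium, so the sampled cells were not those in which the deletion was directed. *Ptch1* itself measured 7.31, 9.70 and 10.2 TPM in control samples and 5.28, 6.33 and 7.01 TPM in *Ptch1*-ablated samples, with a log2 fold change of -0.51 (SE 0.13, edgeR quasi-likelihood test, Benjamini-Hochberg adjusted p = 0.0401). That call was lost in 5 of the 6 fits that left out a sample (edgeR adjusted p up to 0.143) and with limma at both pseudocounts (adjusted p = 0.0781 and 0.0785).

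The corneal epithelium faces ultraviolet light and oxygen, and lipid peroxidation in its cells yields reactive aldehydes. Aldehyde dehydrogenases oxidize aldehydes to acids, while aldo-keto reductases and alcohol dehydrogenases interconvert carbonyls and alcohols. A few metabolic enzymes, ALDH3A1 and transketolase foremost in the mouse, accumulate in the cornea to the level of structural proteins and are therefore called corneal crystallins, by analogy with the crystallins of the lens.

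Each sample held between 20296741 and 20625813 expected counts, which are reads assigned to genes by a model that splits ambiguous reads. *Ptch1*-ablated sample 1 stood apart, with a score on the first principal component (58.1% of the variance) of 51.7 against 18.3 and 19.1 in its fellow replicates, and -33.7 to -26.5 in control samples. Without that sample, 1 of the other named genes (*Taldo1*) gained the edgeR call, while *Ptch1*, *Aldh4a1*, *Akr1b10*, *Akr1c13*, *Akr1e1*, *Cbr4*, *Cryba4*, *Eno1* and *Bfsp1* lost it, and no member changed its side of the threshold. In bulk tissue, fewer cells of a type and less RNA per cell cannot be told apart. The deposited labels name the cells as epithelial, and the corneal keratin gene *Krt12* was the most abundant gene of all, at 37107 to 49487 TPM. The keratocyte gene *Kera* was at or below 0.07 TPM in every sample. Among immune genes *Ptprc* was at or below 0.2 TPM, while *Itgam* was at 67.0 to 128.5 TPM and *Cd68* at 45.3 to 65.5 TPM.

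**Figure D1:**
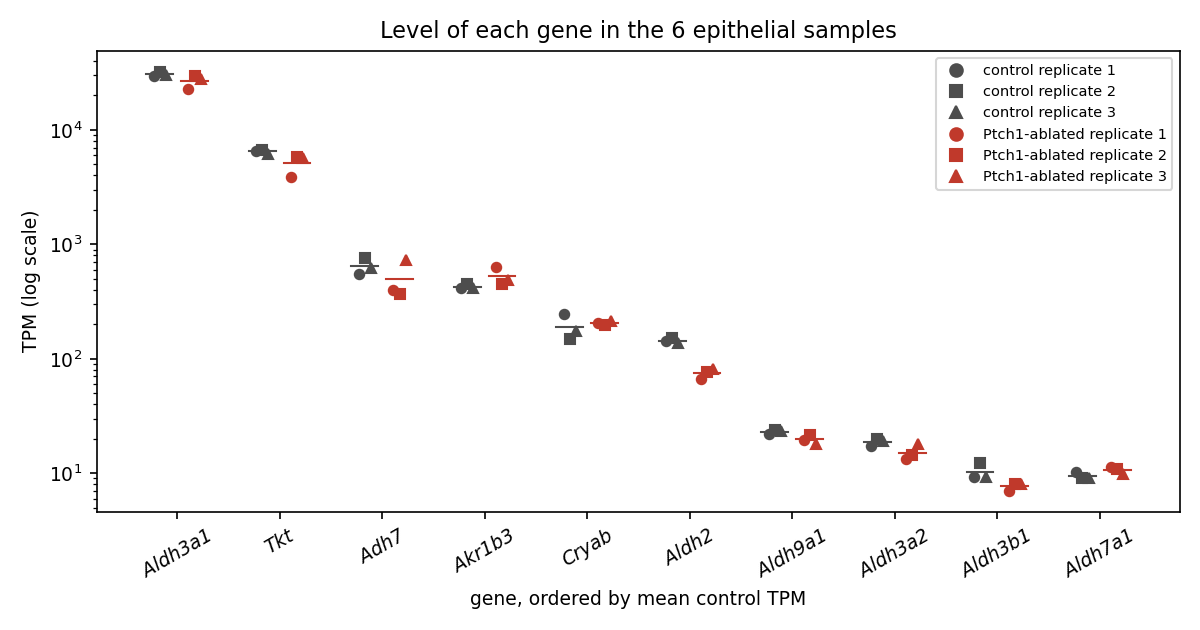
TPM (log axis) of each gene in 6 samples; grey symbols are control, red symbols *Ptch1*-ablated, shapes mark replicates and bars are group means. The genes span from about 10 TPM (*Aldh7a1*) to a control mean of 30551 TPM (*Aldh3a1*), and the *Aldh2* symbols of the 2 groups are well separated.

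The plot of levels shows the order of the genes, with levels as TPM (transcript abundance corrected for transcript length and scaled to the same total in every sample), which allows genes to be compared. In control samples the order of mean TPM was *Aldh3a1*, *Tkt*, *Adh7*, *Akr1b3*, *Cryab*, *Aldh2*, *Aldh9a1*, *Aldh3a2*, *Aldh3b1* and *Aldh7a1*. The ranges of *Cryab* and *Aldh2*, and those of *Aldh3b1* and *Aldh7a1*, overlapped in control samples, so these neighbors did not differ beyond their spread. In *Ptch1*-ablated samples *Akr1b3* stood above *Adh7*, with overlapping ranges, and *Aldh7a1* above *Aldh3b1*.

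*Aldh3a1*, whose product is the chief water-soluble protein of the mouse corneal epithelium and oxidizes medium-chain and lipid-derived aldehydes, was second only to *Krt12* by mean TPM. Its level was 29346, 32147 and 30161 TPM in control samples 1 to 3, and 22485, 29720 and 27680 TPM in *Ptch1*-ablated samples. The groups overlapped, because *Ptch1*-ablated sample 2 lay above control sample 1. Means were 30551 ± 1441 TPM (SD, n = 3) and 26628 ± 3730 TPM (SD, n = 3), and the spread was wider after ablation, with coefficients of variation of 4.72% and 14.0%. The log2 fold change was -0.16 (SE 0.11, 95% interval -0.43 to 0.11), with an edgeR quasi-likelihood adjusted p of 0.365 (Benjamini-Hochberg). This interval, in linear terms 0.744 to 1.08 times the control level, does not show that the level was equal in both groups. Without *Ptch1*-ablated sample 1 the log2 fold change was -0.08 (edgeR adjusted p = 0.645). *Aldh3a1* was the second most abundant gene in every sample except *Ptch1*-ablated sample 1, where *Krt5* also lay above it.

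*Tkt*, the transketolase of the non-oxidative pentose phosphate pathway and the other classic corneal crystallin, ranked 14th by mean TPM over all samples. It measured 6536, 6704 and 6194 TPM in control samples and 3864, 5819 and 5699 TPM in *Ptch1*-ablated samples. Every *Ptch1*-ablated sample lay below every control sample, and sample 1 lay far below its fellow replicates. *Tkt* had a log2 fold change of -0.31 (SE 0.14, 95% interval -0.64 to 0.03), with an edgeR adjusted p of 0.180, and -0.16 without that sample (adjusted p = 0.293). The ratio of *Aldh3a1* to *Tkt* TPM ran from 4.49 to 4.87 in control samples and from 4.86 to 5.82 in *Ptch1*-ablated samples.

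**Figure D2:**
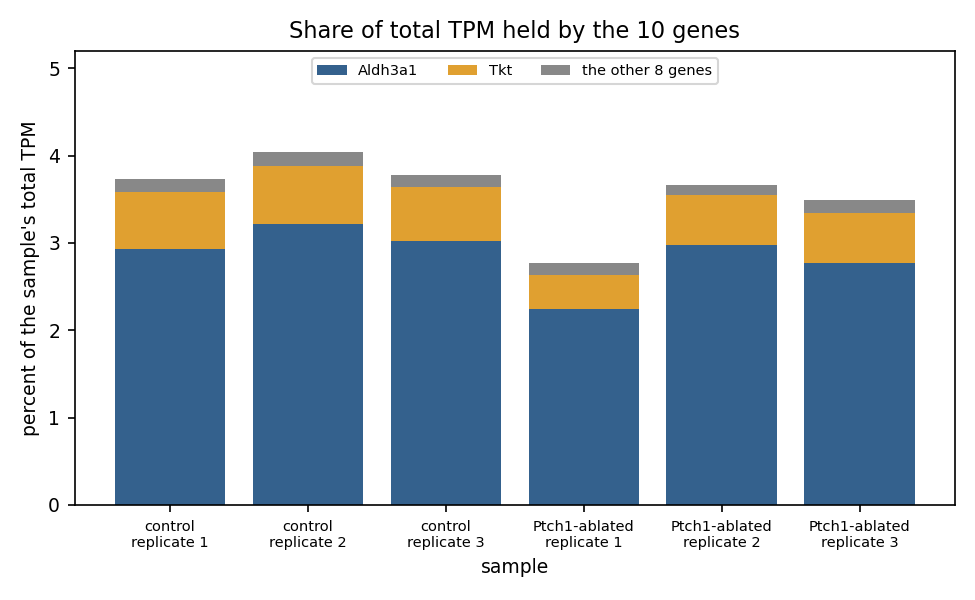
Percent of each sample's total TPM held by *Aldh3a1*, *Tkt* and the other 8 genes, stacked, one bar per sample. Control bars reach 3.73% to 4.04% and *Ptch1*-ablated bars 2.77% to 3.67%, and most of each bar is *Aldh3a1*.

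The stacked bars of TPM share show how much of the total was *Aldh3a1*. The 10 genes held 3.73%, 4.04% and 3.78% of total TPM in control samples and 2.77%, 3.67% and 3.49% in *Ptch1*-ablated samples. No *Ptch1*-ablated sample reached the lowest control sample, and the difference between means was -0.54 percentage points (3.85% ± 0.168 against 3.31% ± 0.476, SD, n = 3 each). Without *Ptch1*-ablated sample 1 the difference was -0.27 points. The share of *Aldh3a1* itself overlapped, at 2.93% to 3.21% in control and 2.25% to 2.97% in *Ptch1*-ablated samples. Without *Aldh3a1* the remaining genes held 0.760% to 0.827% in control and 0.522% to 0.725% in *Ptch1*-ablated samples, without overlap. Their means were 0.794% and 0.648%, a difference of -0.15 points on a much smaller share. Most of this remainder was *Tkt*, with mean shares of 0.648% in control and 0.513% in *Ptch1*-ablated samples. *Aldh3a1* alone made up 78.7% to 79.9% of the summed TPM of the 10 genes in control samples and 79.2% to 81.2% in *Ptch1*-ablated samples. The 8 genes other than *Aldh3a1* and *Tkt* held 0.141% to 0.157% of total TPM in control samples and 0.114% to 0.156% in *Ptch1*-ablated samples, so these ranges overlapped.

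*Aldh2* encodes the mitochondrial aldehyde dehydrogenase that clears acetaldehyde and lipid-derived 4-hydroxynonenal. It measured 142, 151 and 138 TPM in control samples and 66.6, 76.3 and 81.7 TPM in *Ptch1*-ablated samples. The groups did not overlap, and the *Ptch1*-ablated samples stood at 46.4%, 53.1% and 57.0% of the control mean. Normalized counts were 3437 ± 158 (SD, n = 3) in control and 1856 ± 93.9 (SD, n = 3) in *Ptch1*-ablated samples, a 1.85-fold lower value. Its log2 fold change was -0.89 (SE 0.07, 95% interval -1.05 to -0.73), with an edgeR quasi-likelihood adjusted p of 0.00263 (Benjamini-Hochberg), and it remained -0.85 without *Ptch1*-ablated sample 1. *Aldh2* passed the adjusted p threshold of 0.05 in all 14 alternative settings, with adjusted p from 6.80e-23 to 0.0289. By rank among all genes, *Aldh2* went from between 961 and 1052 in control samples to between 1953 and 2261 in *Ptch1*-ablated samples. The TPM ratio of *Aldh3a1* to *Aldh2* was 207 to 219 in control samples and 338 to 390 in *Ptch1*-ablated samples.

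Of the 10 genes, 1 (*Aldh2*) was lower at an adjusted p of at most 0.05 by edgeR, where 6.41% of the 12999 genes tested were lower. None of the 10 (0) was higher at that threshold, where 7.61% of genes tested were higher. At an unadjusted edgeR p under 0.05 there were 0 higher and 3 lower, where 2208 of the 12999 genes tested were higher and 2150 lower. DESeq2 called 0 higher and 1 lower at its adjusted p, where it called 1402 genes higher and 1081 lower in the whole table. Where a 2-fold change was also required, 0 of 10 were called by edgeR and also by DESeq2, where edgeR called 3.23% of all genes tested. Normalized counts of the groups did not overlap for 6 of the 10 (*Aldh2*, *Aldh3a2*, *Aldh3b1*, *Aldh9a1*, *Tkt* and *Akr1b3*), against 39.9% of all genes tested. Of the 10 fold changes 3 were positive and 7 negative, with a median log2 fold change of -0.23, where the median over all genes tested was -0.01.

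**Figure D3:**
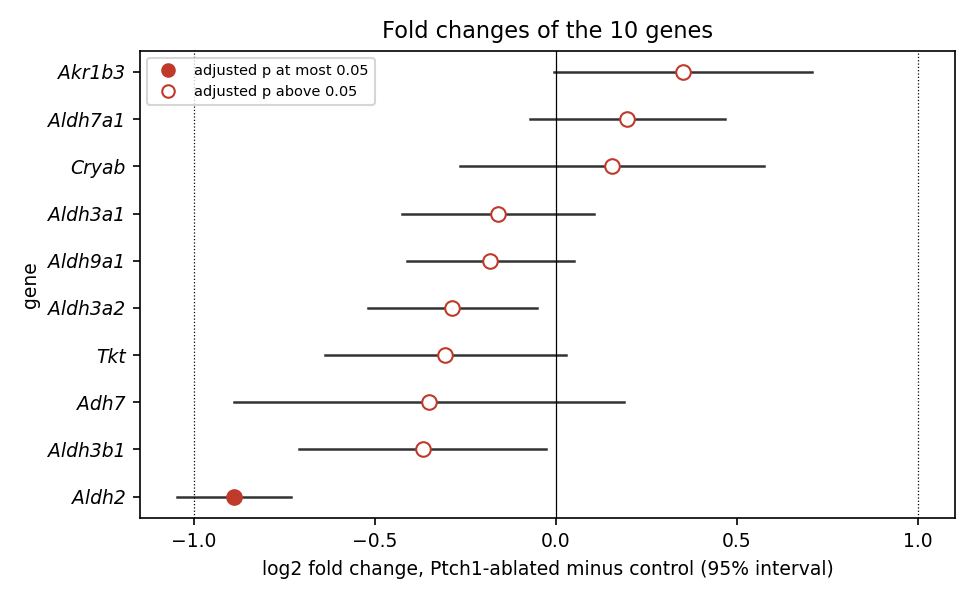
Log2 fold change of normalized counts (*Ptch1*-ablated minus control, horizontal axis) with 95% intervals from edgeR for each gene; the filled symbol is the gene at an adjusted p of at most 0.05 and dotted lines mark a 2-fold change. *Aldh2* (-0.89) is the filled symbol, and its interval of -1.05 to -0.73 does not reach 0.

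The plot of fold changes and intervals places the remaining members. *Aldh3a2* encodes the microsomal fatty aldehyde dehydrogenase. Its level was 17.3, 19.9 and 19.1 TPM in control samples and 13.3, 14.3 and 17.9 TPM in *Ptch1*-ablated samples. The ranges overlapped in TPM, with *Ptch1*-ablated sample 3 above control sample 1. For *Aldh3a2* the log2 fold change was -0.29 (SE 0.10), with an edgeR adjusted p of 0.0930.

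*Aldh3b1*, an aldehyde dehydrogenase of the same subfamily that acts on lipid-derived aldehydes, measured 9.20, 12.2 and 9.22 TPM in control samples and 7.03, 8.01 and 8.05 TPM in *Ptch1*-ablated samples. The 3 *Ptch1*-ablated values were all below the 3 control values. For *Aldh3b1* it was -0.37 (log2 fold change, SE 0.15), with an edgeR adjusted p of 0.127. This gene rested on 128 to 215 expected counts a sample, so counting alone gives a coefficient of variation of 7.43% in control and 8.60% in *Ptch1*-ablated samples, against observed values of 17.1% and 7.51%. Its expected counts, like those of *Aldh7a1* and *Cryab*, were fractional in every sample, so they can include reads shared with related sequences.

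*Aldh9a1*, which oxidizes aminoaldehydes on the route to carnitine, measured 21.9, 24.0 and 23.3 TPM in control samples and 19.5, 21.8 and 18.0 TPM in *Ptch1*-ablated samples. Control sample 1 lay only just above *Ptch1*-ablated sample 2, and the groups did not overlap. The log2 fold change was -0.18 (SE 0.10, edgeR adjusted p = 0.239). *Aldh7a1*, which acts in lysine breakdown, measured 10.3, 9.0 and 9.09 TPM in control samples and 11.4, 10.9 and 9.77 TPM in *Ptch1*-ablated samples. *Ptch1*-ablated sample 3 fell within the control range. The log2 fold change was 0.20 (SE 0.12, edgeR adjusted p = 0.270).

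*Adh7* encodes the class IV alcohol dehydrogenase, which oxidizes retinol and ethanol and is abundant in the cornea. It measured 555, 756 and 621 TPM in control samples and 396, 368 and 721 TPM in *Ptch1*-ablated samples. *Ptch1*-ablated samples 1 and 2 lay below the control range and sample 3 lay within it, so the coefficient of variation was 39.7% against 15.9% in control samples. The log2 fold change was -0.35 (SE 0.23, edgeR adjusted p = 0.325), and without *Ptch1*-ablated sample 3 it was -0.68 with an edgeR adjusted p of 0.0334. That sample therefore decides whether *Adh7* passes the threshold.

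*Akr1b3*, aldose reductase, reduces glucose to sorbitol and also reduces aldehydes. It measured 413, 446 and 412 TPM in control samples and 638, 448 and 483 TPM in *Ptch1*-ablated samples. *Ptch1*-ablated sample 1 was far above the rest, while sample 2 lay just above control sample 2. Its fold change was 0.35 on the log2 scale (SE 0.15, edgeR adjusted p = 0.153), and 0.14 without that sample.

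*Cryab*, a small heat shock protein that chaperones unfolded proteins in lens and other tissues, measured 244, 148 and 175 TPM in control samples and 205, 196 and 215 TPM in *Ptch1*-ablated samples. The *Ptch1*-ablated values lay within the control range, and the spread was in the control group (26.2% against 4.73% as coefficients of variation). *Cryab* had a log2 fold change of 0.16 (SE 0.18, edgeR adjusted p = 0.583). It was 0.41 without control sample 1 (adjusted p = 0.0584) and -0.0013 without control sample 2.

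**Figure D4:**
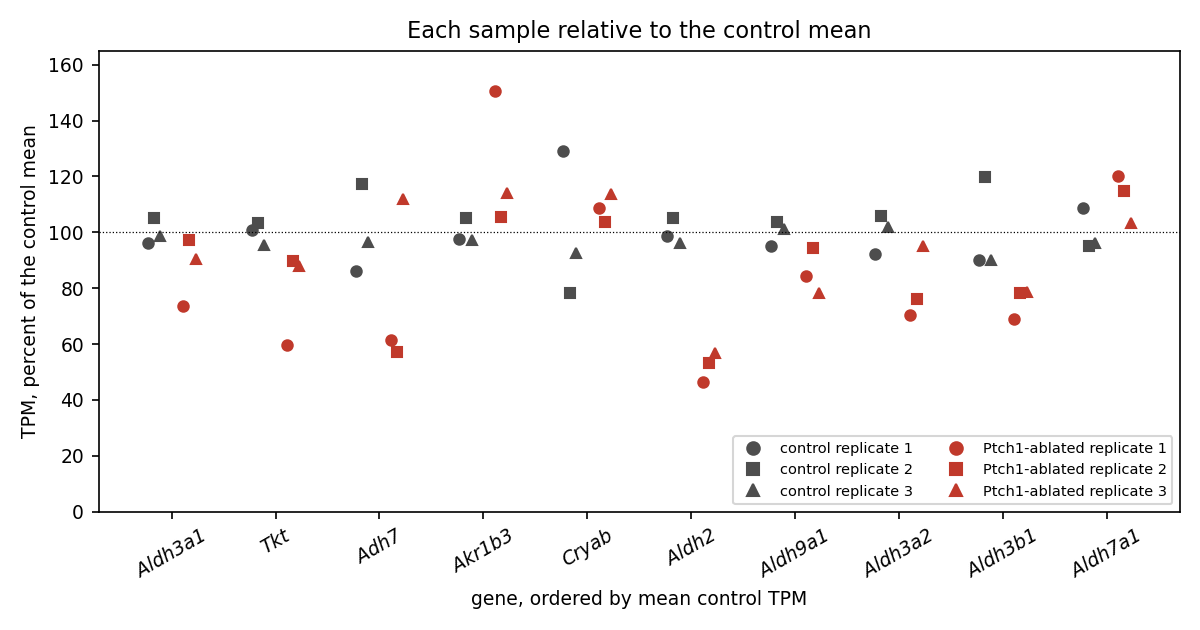
TPM of each sample as a percent of that gene's control mean (vertical axis), symbols as in the plot of levels. *Ptch1*-ablated sample 1 is the lowest of the 6 for 5 genes and the highest for *Aldh7a1* and *Akr1b3*, and *Aldh2* values of 46.4% to 57.0% are the only 3 of a *Ptch1*-ablated group all below 60%.

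The plot of percentages of the control mean shows that several members had their extreme values in the same samples. *Ptch1*-ablated sample 1 was the lowest of 6 for *Aldh3a1*, *Aldh2*, *Aldh3a2*, *Aldh3b1* and *Tkt*. Control sample 2 was the highest for these 5 genes and for *Aldh9a1* and *Adh7*. Over the 6 samples, and on log2(TPM + 1), *Aldh3a1* had a Pearson r of 0.967 with *Tkt*, 0.746 with *Aldh2* and -0.916 with *Akr1b3*, as a description of samples that share their depth and the *Ptch1*-ablated sample 1. Among 8393 genes with a mean of at least 10 TPM, those most like *Aldh3a1* were *Lmbr1l* (r = 0.999), *Cbln1* (0.999), *Eif2ak4* (0.995), *Sugp1* (0.992) and *Ecsit* (0.992). *Tkt* was 72nd in that order.

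**Figure D5:**
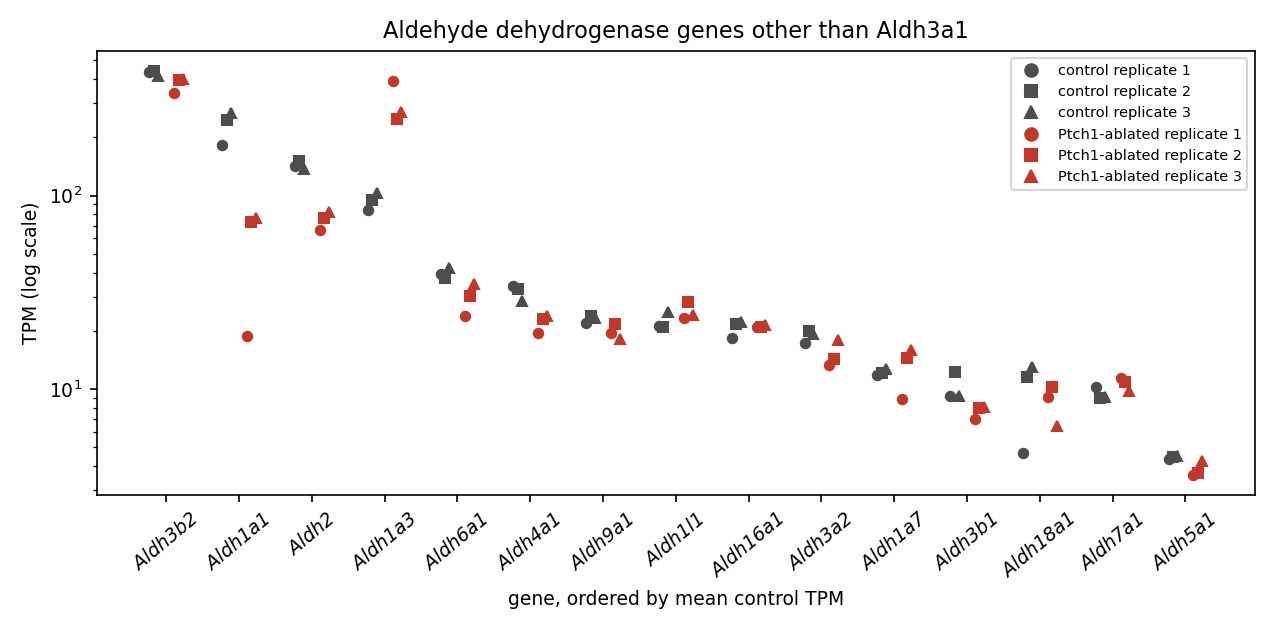
TPM (log axis) of the 15 other aldehyde dehydrogenase genes with a mean of at least 1 TPM, per sample, symbols as in the plot of levels. *Aldh1a3* lies higher and *Aldh1a1* and *Aldh2* lie lower in all 3 *Ptch1*-ablated samples.

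The plot of the other aldehyde dehydrogenases sets the 5 smaller members beside their relatives. *Aldh3a1* held 95.8% to 96.8% of the summed TPM of the 21 aldehyde dehydrogenase genes in the table. The summed TPM of the rest was 1034, 1141 and 1136 in control samples and 976, 983 and 1015 in *Ptch1*-ablated samples, so the groups did not overlap. *Aldh2* held 13.03% of this rest in control and 7.54% in *Ptch1*-ablated samples on average. The shares of *Aldh1a1* were 20.9% and 5.63%, those of *Aldh1a3* 8.52% and 30.6%, and those of *Aldh3b2*, the largest part, 39.1% and 38.2%.

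Of the 15 aldehyde dehydrogenase genes outside the members, 11 were tested, 1 was higher and 2 were lower by edgeR past an adjusted p of 0.05, and the median log2 fold change was -0.13. Over all genes tested, 7.61% were higher and 6.41% lower at that threshold. *Aldh1a3*, which makes retinoic acid from retinal, had a mean of 94.2 ± 9.47 TPM (SD, n = 3) in control and 303 ± 75.8 TPM (SD, n = 3) in *Ptch1*-ablated samples (log2 fold change 1.74, edgeR adjusted p = 0.00647). *Aldh1a1*, another retinal dehydrogenase, had 182, 247 and 268 TPM in control and 18.7, 72.8 and 76.8 TPM in *Ptch1*-ablated samples (log2 fold change -2.03, edgeR adjusted p = 0.0276, which rose above 0.05 when any single control sample was left out). Its counts were fractional, and reads may be shared with the near-identical *Aldh1a7*. *Aldh4a1*, of proline breakdown, had a log2 fold change of -0.50 (edgeR adjusted p = 0.0255, lost when any of 4 of the 6 samples was left out).

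The other pathways of aldehyde handling were given by lists of related genes. For these lists and those in the paragraphs that follow, the background was all 12999 genes tested by edgeR. Of these, 7.61% were higher and 6.41% lower at an adjusted p of at most 0.05. At an unadjusted p under 0.05, 2208 were higher and 2150 lower, and DESeq2 called 1402 genes higher and 1081 lower. Of 5 other alcohol dehydrogenase genes tested 0 passed by edgeR, with 1 higher and 1 lower at an unadjusted p under 0.05, and DESeq2 called 1 lower. *Adh1*, the most abundant of them, measured 1613, 1962 and 1633 TPM in control and 1048, 1156 and 1592 TPM in *Ptch1*-ablated samples (log2 fold change -0.42, edgeR adjusted p = 0.0792, or 0.0297 without *Ptch1*-ablated sample 3). Of 9 other aldo-keto reductase genes, 1 was higher and 3 were lower. *Akr1b8*, a close relative of *Akr1b3*, was the one higher, at a mean of 10.9 TPM in control and 60.1 TPM in *Ptch1*-ablated samples (log2 fold change 2.52, edgeR adjusted p = 0.0077, or 0.0538 without control sample 2), and its counts were fractional. *Akr1b10*, *Akr1c13* and *Akr1e1* were lower, with log2 fold changes of -0.33, -0.33 and -0.26, and each lost the call in all 6 fits that left out a sample. *Akr1a1*, the most abundant, had 493 and 479 TPM.

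Of 12 further genes that clear or conjugate aldehydes, 0 were higher and 3 were lower, while 0 were higher and 4 lower at an unadjusted p under 0.05, and DESeq2 called 0 higher and 2 lower. *Ptgr1*, which reduces 4-hydroxynonenal and related alkenals, measured 1064, 1020 and 984 TPM in control and 531, 750 and 779 TPM in *Ptch1*-ablated samples (log2 fold change -0.55, edgeR adjusted p = 0.0291, above 0.05 without any single control sample). *Dcxr* and *Cbr4* had log2 fold changes of -0.65 and -0.33, and of the 6 fits that left out a sample *Dcxr* lost the call in 4 and *Cbr4* in all 6. *Gsta4*, the glutathione transferase of 4-hydroxynonenal, was the most abundant at 11039 and 9231 TPM (log2 fold change -0.22, edgeR adjusted p = 0.158).

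Around *Tkt*, 8 other pentose phosphate genes were tested, with 0 higher, 1 lower and a median log2 fold change of -0.14. At an unadjusted p under 0.05 there were 2 higher and 2 lower, and DESeq2 called 0 higher and 1 lower. The one lower was *Rpia*, which supplies a substrate of transketolase, at 56.8, 60.7 and 58.8 TPM in control and 42.3, 41.6 and 45.5 TPM in *Ptch1*-ablated samples (log2 fold change -0.41, edgeR adjusted p = 0.0141, or 0.0725 without control sample 2). *Taldo1*, the transaldolase of the same branch, had 490 ± 22.7 TPM (SD, n = 3) in control and 404 ± 28.2 TPM (SD, n = 3) in *Ptch1*-ablated samples (log2 fold change -0.24, edgeR adjusted p = 0.102). It passed without *Ptch1*-ablated sample 1 (log2 fold change -0.33, edgeR adjusted p = 0.0213) and with limma at both pseudocounts (adjusted p = 0.0479 and 0.0486).

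Beside *Cryab*, 0 of 5 small heat shock protein genes passed in either direction by edgeR, with 0 higher and 1 lower at an unadjusted p under 0.05, and DESeq2 called 0. *Hspb1*, the most abundant, had means of 2861 and 2317 TPM (log2 fold change -0.27, edgeR adjusted p = 0.140). Of 7 tested genes that are lens crystallins or are named for a likeness to crystallins, 5 had positive fold changes and 1 passed, the lens crystallin gene *Cryba4*, at a mean of 0.78 TPM in control and 2.79 TPM in *Ptch1*-ablated samples (edgeR adjusted p = 0.0293, above 0.05 in 5 of the 6 fits that left out a sample). Of 10 other abundant soluble enzymes of the cornea, 3 were higher (*Gapdh*, *Eno1* and *Ldha*, log2 fold changes of 0.49, 0.43 and 0.47) and 1 was lower (*Prdx6*, -0.47). By edgeR their adjusted p were 0.0349, 0.0433, 0.0469 and 0.0192, and each was above 0.05 in 2 to 5 of the 6 fits that left out a sample.

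Marker genes of other cell types were read in the same samples, against the same background of 7.61% of all genes tested higher and 6.41% lower by edgeR. Of the 11 keratocyte genes with values, 4 were tested and 0 passed by edgeR (1 at an unadjusted p under 0.05, 0 by DESeq2), and their summed TPM was 8.56 to 38.5 in control and 8.08 to 10.9 in *Ptch1*-ablated samples. The 38.5 TPM was in control sample 3, where *Col1a2* alone was at 26.0 TPM, against 1.69 and 0.91 TPM in control samples 1 and 2. Control samples 1 and 2 summed to 10.1 and 8.56 TPM. The 8 immune genes summed to 126 to 166 TPM in control and 153 to 208 TPM in *Ptch1*-ablated samples, with 0 of 3 tested genes passing by edgeR (1 at an unadjusted p under 0.05, 1 by DESeq2). Most of each sum was *Itgam* and *Cd68*. By contrast, *Ptprc*, *Adgre1*, *Csf1r* and *Cd3e* were at or below 0.28 TPM in every sample, and *Tyrobp* at or below 1.36 TPM. Normalized counts of *Itgam* and *Cd68* were higher in every *Ptch1*-ablated sample than in any control sample. Normalized counts of the groups did not overlap for 39.9% of all genes tested. In TPM both genes overlapped, with control sample 3 (100.6 and 50.1 TPM) above *Ptch1*-ablated sample 2 (99.5 and 48.8 TPM). Log2 fold changes of *Itgam* and *Cd68* were 0.48 and 0.27 (edgeR adjusted p = 0.0759 and 0.213). The remaining tested immune gene, *Cd74*, went the other way, with overlapping groups (log2 fold change -0.45, edgeR adjusted p = 0.464). The immune genes therefore did not share a direction. For the corneal endothelium, 0 of 2 tested genes passed by edgeR (2 at an unadjusted p under 0.05, 1 by DESeq2), the 5 genes summed to 369 to 400.5 TPM in control and 411 to 464 TPM in *Ptch1*-ablated samples, and *Cdh5* was at or below 0.03 TPM. Of 2 tested lens genes 1 (*Bfsp1*) was higher by edgeR (adjusted p = 0.0385, above 0.05 in 5 of the 6 fits that left out a sample and 0.0566 with a replicate block), with the 4 lens genes summing to 9.21 to 14.6 TPM in control and 15.4 to 19.3 TPM in *Ptch1*-ablated samples. The 5 conjunctival genes, of which 0 were higher and 1 (*Krt8*) was lower by edgeR (adjusted p = 0.0139, or 0.0692 without control sample 2, with 3 higher at an unadjusted p under 0.05 and 1 by DESeq2), summed to 1420 to 2364 TPM in control and 2210 to 4751 TPM in *Ptch1*-ablated samples. *Ptch1*-ablated sample 1, the lowest for 5 members, held the highest of these conjunctival sums. *Krt4*, *Krt19*, *Krt7* and *Krt13* had positive log2 fold changes of 1.80, 1.46, 0.71 and 0.68 (edgeR adjusted p from 0.0685 to 0.217). *Krt8* went the other way (log2 fold change -0.91). Of 10 corneal epithelial markers 1 was higher and 0 were lower. This was the basal keratin gene *Krt14*, at 571 TPM in control and 3824 TPM in *Ptch1*-ablated samples on average (log2 fold change 2.81, edgeR adjusted p = 0.0077, or 0.0538 without control sample 2), and its highest value, 5798 TPM, was also in *Ptch1*-ablated sample 1. The part of these differences in the levels of *Aldh2* and the other members was not tested.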

How the data were processed

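RNA was isolated from EDTA-separated corneal epithelial cells (3 biological replicates per group, per the study's methods). The labels name an Illumina TruSeq kit, and the methods name rRNA depletion and BGISEQ-500 sequencing. The authors aligned reads with Bowtie2 2.2.5 and quantified genes with RSEM 1.2.12, and the labels give build mm9. The deposited table holds RSEM expected counts and TPM per sample, both used here. Its FPKM values and the authors' group averages and comparison columns were not used. No coordinates or sequences were printed.

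Expected counts were rounded, filtered by edgeR's filterByExpr, scaled by TMM and tested with edgeR 4.0.16 quasi-likelihood (R 4.3.3) on all 12999 genes passing, with Benjamini-Hochberg adjustment and a threshold of 0.05, plus 2-fold where stated. On simulated counts for this comparison (12878 genes), edgeR recovered 94.9% of genes changed by 1.5 on the log2 scale. That change is larger than the change of any member, so recovery of changes of the members' size was not measured. Levels were described in TPM, without a count model. Alternatives were DESeq2 1.42.0, RLE factors, TMM without the 10 members, other filters, limma 3.58.1 on log2(TPM + 1) and log2(TPM + 0.1), a replicate block and leaving out each sample.

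The members and lists were chosen with earlier results of these data known. Named genes were the 10 members, *Ptch1*, up to 4 genes per list with the smallest adjusted p at or below 0.05, each list's most abundant gene and the 5 genes most like *Aldh3a1*. The p-values set each difference between groups against the spread between these samples, estimated partly across all genes. They cover only these samples.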

Additional observations from a re-analysis of the deposited data

How the results depend on the processing

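Among the 10 members, *Aldh2* was past the threshold in all 14 alternatives (log2 fold change -0.94 to -0.85). *Adh7* passed in 1 alternative, and the other 8 passed in none. Over all genes, 420 were called at adjusted p and 2-fold and 1822 at adjusted p alone. These became 234 for the first count with limma on log2(TPM + 1). Leaving out 1 sample gave 59 to 430 and 93 to 1325. With a replicate block they were 390 and 1892, and *Aldh2* was again the only member past the threshold. The labels do not say whether the replicate numbers pair the samples. Deviations from the group means correlated at 0.105, -0.0137 and 0.0189 for same-numbered samples, and at -0.181 to 0.181 for differently numbered ones. With 3 samples per group these values cannot decide whether samples were paired. The difference in the share of the 10 genes was -0.54 percentage points (3.85% in control, 3.31% in *Ptch1*-ablated samples). It lay between -0.72 and -0.27 when 1 sample was left out. Without *Aldh3a1* the remaining genes held a much smaller share, 0.794% in control and 0.648% in *Ptch1*-ablated samples. Their difference of -0.15 points is therefore not on the scale of the whole.

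Signs turned for 4 genes whose changes had not passed the threshold. *Cryab* ranged from -0.0013 to 0.41 with 1 sample left out. *Akr1a1* was 0.0011 with RLE factors and 0.0018 with at least 10 counts in every sample, and -0.045 to 0.029 with 1 sample left out. *Ppia* was -0.021 with limma at both pseudocounts and -0.083 to 0.11 with 1 sample left out. *Col1a2* was -3.07 to 0.30 with 1 sample left out. The cause was not tested. Over the named genes, 566 of the alternative values kept their side of the threshold, 85 lost it, 8 gained it and 11 changed sign.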
